A study of Mus musculus with 6 samples.

Results

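The mitochondrial solute carriers of the SLC25 family were followed in RNA-seq data of mouse cells that overexpress one of the PPARγ2 mutants K382Q and K382R. The members were the genes whose symbol in the deposited tables is Slc25a followed by a number, which gave 47 of 56884 gene IDs. A member was tested if it reached 0.5 TPM (a level per transcript length, scaled to the same total in each library) in at least 3 of the 6 libraries. This held for 41 members, of 15426 tested genes in all. The other 6 stayed under it.

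The cells were an immortalized line from the stromal vascular fraction (SVF) of mouse subcutaneous white fat, the fraction that holds adipocyte precursors. One group overexpressed PPARγ2 K382Q, in which glutamine stands for the lysine and resembles its acetylated form. The other overexpressed PPARγ2 K382R, in which arginine keeps the charge of the deacetylated lysine. Both mutants were introduced as HA-tagged mouse PPARγ2 with a retroviral vector and kept as puromycin-selected lines, so the mutant was expressed on top of the cells' own PPARγ. Each group had 3 biological replicates, and RNA was taken on day 2 of beige differentiation. The medium of both groups held rosiglitazone, a PPARγ agonist, at 0.5 µM, with T3 at 1 nM, insulin at 5 µg/mL, dexamethasone at 2 µg/mL, indomethacin at 125 µM and isobutylmethylxanthine at 500 µM. No library of wild-type PPARγ2, of an empty vector or of undifferentiated cells was analysed here, so each difference is one mutant against the other. The labels do not say whether the replicates came from separate transductions, and p-values then measure the spread between these cultures.

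SLC25 proteins are built of repeated modules with membrane-spanning helices and sit, with few exceptions, in the inner mitochondrial membrane. Each moves certain solutes across it: ADP against ATP, phosphate, citrate and other carboxylates, acylcarnitines, amino acids, nucleotides, cofactors or iron. Fat cells depend on them for respiration, for export of citrate toward lipid synthesis and for import of fatty acyl groups, and the uncoupling proteins of thermogenic fat belong to the same family under other symbols.

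The sequences before the transcription start are shown for the member with the largest increase, for another increased member and for the 2 decreased carriers of ATP-Mg and phosphate, because these 4 carry the main differences described below. Each is the 250 bases before a start in the RefSeq promoter table of GRCm39, written 5′ to 3′ on the strand of the gene. Capitals mark a match to the nuclear receptor half-site AGGTCA or to the cyclic AMP response element TGACGTCA, read on both strands. The windows lie at chr4:141351146-141351395 on the minus strand for *Slc25a34*, chr13:56585918-56586167 on the plus strand for *Slc25a48*, chr3:109030215-109030464 on the plus strand for *Slc25a24* and chr2:32314079-32314328 on the minus strand for *Slc25a25*.
Slc25a34: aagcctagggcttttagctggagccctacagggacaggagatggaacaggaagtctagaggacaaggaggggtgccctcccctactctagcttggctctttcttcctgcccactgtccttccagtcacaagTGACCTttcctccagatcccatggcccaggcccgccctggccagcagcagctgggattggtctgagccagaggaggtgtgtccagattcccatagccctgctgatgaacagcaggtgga
Slc25a48: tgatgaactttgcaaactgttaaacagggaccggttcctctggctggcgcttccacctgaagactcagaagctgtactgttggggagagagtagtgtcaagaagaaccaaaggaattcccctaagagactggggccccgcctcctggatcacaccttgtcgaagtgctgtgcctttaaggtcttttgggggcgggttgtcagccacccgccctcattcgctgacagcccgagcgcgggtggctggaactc
Slc25a24: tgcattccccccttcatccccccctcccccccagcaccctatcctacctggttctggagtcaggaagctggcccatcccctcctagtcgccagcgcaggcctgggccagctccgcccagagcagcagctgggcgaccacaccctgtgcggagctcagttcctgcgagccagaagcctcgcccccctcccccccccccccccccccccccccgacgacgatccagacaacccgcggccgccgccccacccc
Slc25a25: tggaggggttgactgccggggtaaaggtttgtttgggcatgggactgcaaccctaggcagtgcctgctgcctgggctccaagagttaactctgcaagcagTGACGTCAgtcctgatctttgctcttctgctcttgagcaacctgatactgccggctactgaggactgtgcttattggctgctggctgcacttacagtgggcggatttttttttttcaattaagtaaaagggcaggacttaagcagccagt

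The window of *Slc25a34* holds the half-site as its complement TGACCT, with the first base 119 bases before the start. The window of *Slc25a25* belongs to the innermost of its 3 listed starts and holds TGACGTCA 150 bases before it, while the windows at its other starts hold neither motif. That innermost start is at chr2:32314078, whereas the canonical transcript in GENCODE starts at chr2:32341478. The table held 36 of the 47 members, with 46 windows of 250 bases before to 50 after a start. AGGTCA was in 8.7% of these windows and in 16.3% of the 32851 windows of all genes. TGACGTCA was in 4.35% against 1.79%, in the windows of *Slc25a25* and *Slc25a36*. The GC box GGGCGG was in 82.6% of the members' windows against 35.7%. The direct repeat AGGTCANAGGTCA, which contains the half-site, was in none of the members' windows and in 0.0396% of all windows. A match is a string of letters and not a bound site, and a window without one says nothing of the factor.

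The identity of the cells was checked with marker genes. Fat cell genes were abundant in all libraries, with *Fabp4*, the fatty acid binding protein of adipocytes, the most abundant of them, while *Lep* was listed at 0 in all 6. With K382Q, 3 of 6 tested fat cell genes were higher and 2 lower, beside 11.1% and 36.9% of all genes. After median-ratio scaling 4 were higher and 1 lower, beside 19.8% and 20.4%. Quantile normalization gives genes of the same rank the same value in each library. It set *Fabp4* to the same level in both groups, so that scaling could not call its increase. *Cidec* had a log2 fold change of 0.07 with it and was not called. The adipokine gene *Adipoq* was at 147 to 149 TPM against 346 to 383 TPM (log2 fold change −1.28, adjusted p = 7.63e-07 by limma). Genes of preadipocytes and fibroblasts were lower in PPARγ2 K382Q-overexpressing cells, in 6 of 6 tested (36.9% of all genes), with a summed level of 119 to 127 TPM against 192 to 196 TPM. After median-ratio scaling 6 were lower as well, beside 20.4%. With quantile normalization *Col3a1* was not called (log2 fold change −0.08). In bulk RNA, fewer cells of a type and less RNA per cell cannot be told apart. Of 5 leukocyte genes, *Adgre1* and *Cd3e* were listed at 0, *Ptprc* and *Itgam* reached at most 0.0129 and 0.0333 TPM, and *Cd68*, which is not restricted to leukocytes, was at 3.17 to 5.10 TPM and not called. Among epithelial and muscle genes, *Krt8*, which passed the filter through the K382R libraries alone and so had to be lower, was at 0 to 0.116 against 0.594 to 0.747 TPM, and *Des* was higher (4.51 to 5.46 against 2.78 to 3.57 TPM, log2 fold change 0.57), while *Myod1* and *Myog* were listed at 0. The part of these markers in the differences below was not tested. *Pparg* itself was at 1333, 1164 and 1104 TPM in the K382Q libraries and at 1590.0, 1632 and 1612 TPM in the K382R libraries, and was lower in the former (log2 fold change −0.43, adjusted p = 9.77e-04 by limma). The vector carries mouse sequence, and the gene-level TPM does not separate the transgene from the cells' own gene. By Western blot, the paper found the mutant proteins overexpressed to a largely similar degree. Aligned sequence was estimated as the most common ratio of coverage to FPKM among genes over 1 FPKM, which 16.3% to 16.8% of them shared. This estimate came to 5.95 to 7.5 Gb per K382Q library and 6.53 to 8.15 Gb per K382R library.

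The family as a whole held 0.461% to 0.480% of all TPM, and its level was spread very unequally. The summed TPM was 4722, 4684 and 4611 in PPARγ2 K382Q-overexpressing cells and 4802, 4779 and 4762 in PPARγ2 K382R-overexpressing cells. The 6 most abundant members took 72.5% to 73.1% of that sum in every library. A mean of 100 TPM or more was found for 10 members, 20 lay between 10 and 100 TPM, and 11 tested members were under 10 TPM. The median of the tested members' mean levels was 28.2 TPM, against 15.2 TPM over all tested genes. Precision followed the level: the median coefficient of variation within a group was 2.24% among the members of at least 100 TPM (highest 5.28%) and 13.8% among those under 10 TPM (highest 30.6%).

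**Figure D1:**
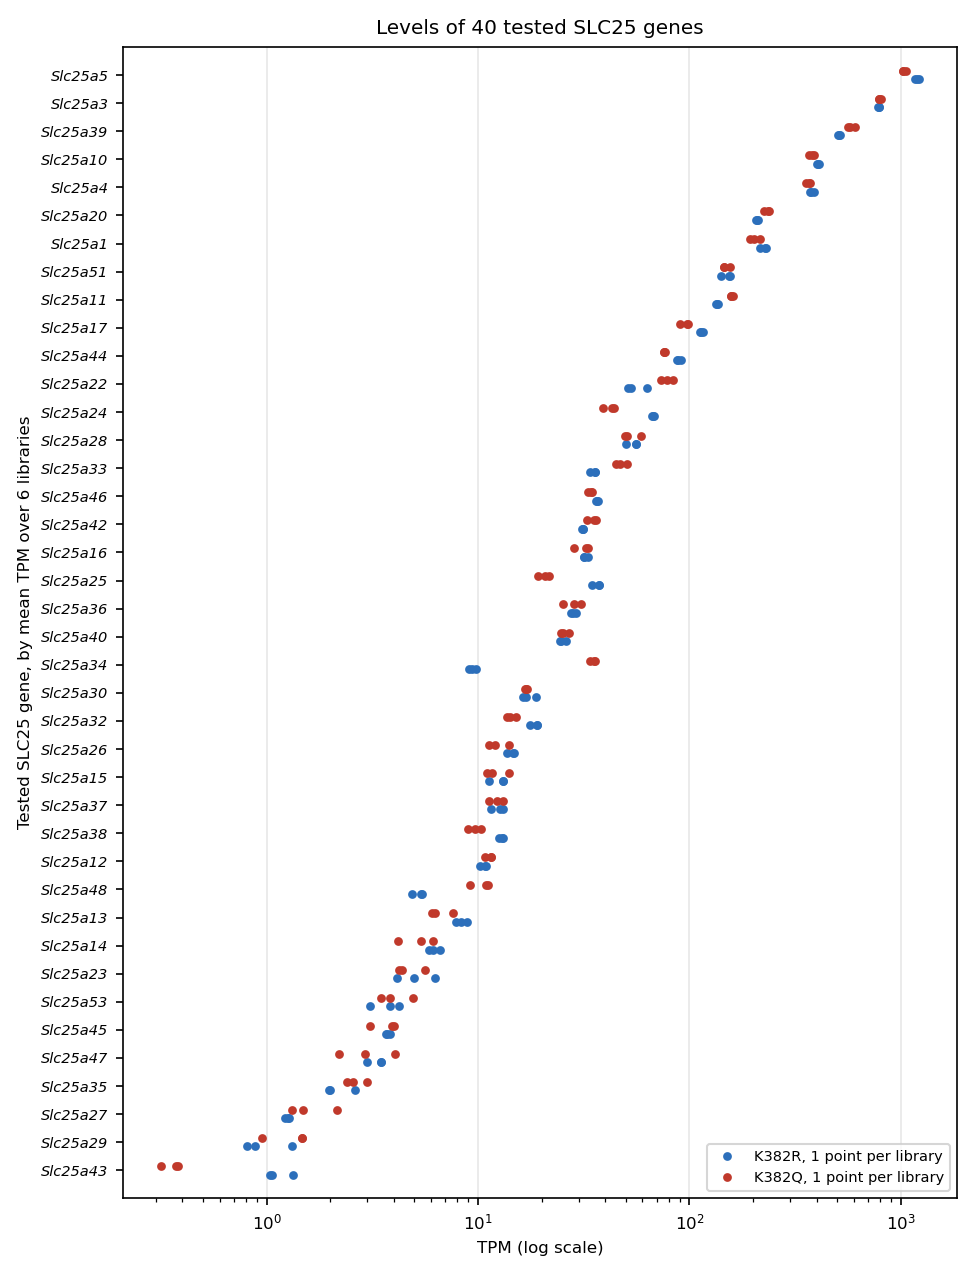
Levels of 40 tested SLC25 genes, 1 point per library (red, K382Q, 3 libraries; blue, K382R, 3 libraries), on a logarithmic TPM axis, ordered by the mean over the 6 libraries. The ADP/ATP carrier gene *Slc25a5* is at the top with 1020.2 TPM or more, *Slc25a43* is at the bottom, and the red and blue points are clearly apart for *Slc25a34*, *Slc25a48*, *Slc25a25*, *Slc25a24* and *Slc25a43*.

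Between the mutants, 8 carriers were higher in PPARγ2 K382Q-overexpressing cells, 11 were lower and 22 did not pass the test. The test was limma on log2(TPM + 0.5), with a call at an adjusted p under 0.05 over all 15426 genes. The share called among all genes was 48.1% (11.1% higher and 36.9% lower), so a call by itself is common in this comparison. The sizes were mostly small. Of the 19 called members, 14 had a log2 fold change under 0.5 in absolute size, and only *Slc25a34* passed 2-fold as well, a rule met by 1.27% of all genes in the higher direction and 2.61% in the lower. The median absolute log2 fold change was 0.16 in the family and 0.23 over all genes. The median signed value was −0.03 in the family and −0.14 over all genes.

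Calls of small changes depended on how the libraries were scaled. TPM is a share of the transcripts, and the median of all genes lay at −0.14 on it, against 0.0032 after median-ratio scaling, which sets the typical gene to no change. With that scaling the median of the family was 0.12. The family then had 13 higher and 5 lower members, with 19.8% and 20.4% of all genes called in these directions. Mitochondrially encoded transcripts, which took 40866 to 49632 TPM in the K382Q and 26568 to 28043 TPM in the K382R libraries, moved with the group. With TPM rescaled without them, 8 members were higher and 9 lower, beside 11.9% and 33.7% of all genes. Quantile normalization gave 11 and 8, beside 19.1% and 21%. All 8 members called higher with TPM were also called with median-ratio scaling, quantile normalization, TPM without mitochondrially encoded genes and FPKM. Of the 11 lower members, 5 were (*Slc25a43*, *Slc25a25*, *Slc25a24*, *Slc25a38* and *Slc25a32*). The other 6 (*Slc25a5*, *Slc25a10*, *Slc25a1*, *Slc25a17*, *Slc25a44* and *Slc25a13*) lost the call under at least 1 of these scalings. Over all genes, higher calls also rose with median-ratio scaling, from 1717 to 3057, and lower calls fell from 5698 to 3153. How many of all genes kept their call under these scalings is not given here.

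**Figure D2:**
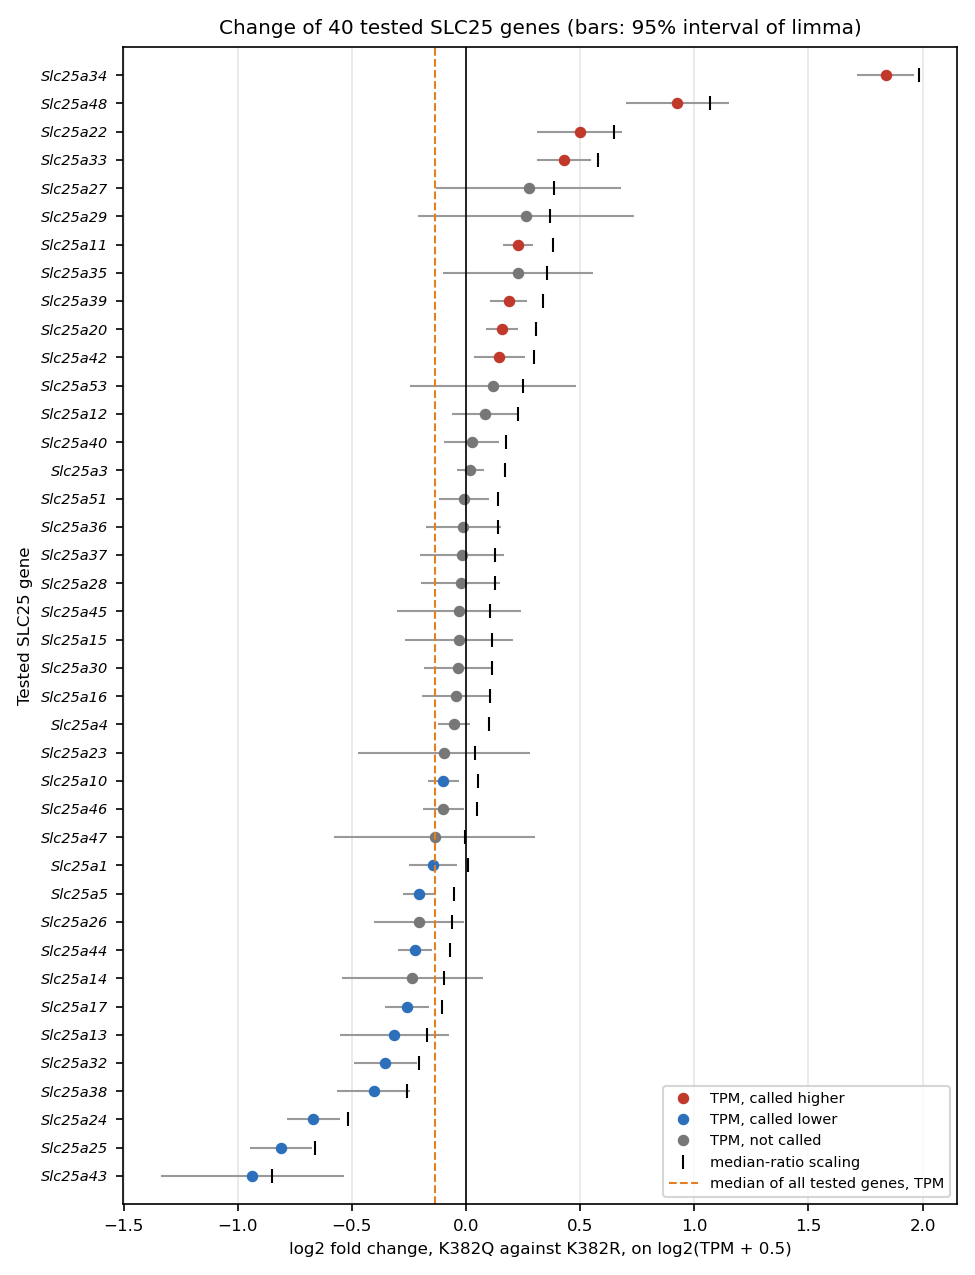
Log2 fold change of 40 tested SLC25 genes, K382Q against K382R, on log2(TPM + 0.5), with the 95% interval of limma (3 libraries per group). Red points were called higher, blue points lower and grey points not called. Black ticks give the value after median-ratio scaling and the dashed line the median of all tested genes with TPM (−0.14). *Slc25a34* stands at 1.84, far from the rest of the family, and every black tick lies to the right of its point.

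The largest difference was that of *Slc25a34*, a carrier whose substrate is little known (ENSMUSG00000040740.8, chr4:141346135-141351132, minus strand, GRCm39). It was at 35.3, 35.9 and 33.8 TPM in PPARγ2 K382Q-overexpressing cells and at 9.83, 9.11 and 9.36 TPM in PPARγ2 K382R-overexpressing cells. The groups were far apart, with every K382Q library above every K382R library. The means were 35.0 ± 1.05 and 9.44 ± 0.365 TPM (SD, n = 3), a 3.71-fold difference (log2 fold change 1.84, SE 0.0531, adjusted p = 4.55e-07 by limma, 3.21e-07 to 5.66e-05 over the 16 alternatives). Mean coverage of the gene ran from 23.6 to 110.4 reads per base. Its level was under the family's median of 28.2 TPM with K382R and above it with K382Q.

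*Slc25a48*, a choline carrier of the inner membrane (ENSMUSG00000021509.6, chr13:56586168-56622052, plus strand), was the second of the increases. It was at 9.16, 11.1 and 10.9 TPM in the K382Q libraries and at 4.86, 5.45 and 5.36 TPM in the K382R libraries. The groups did not overlap, and replicate 1 was the lowest of both. The log2 fold change was 0.93 (SE 0.0962, adjusted p = 1.60e-04 by limma). It stayed under 2-fold with TPM and passed it with median-ratio scaling (1.07), with quantile normalization (1.07) and without K382Q replicate 1 (1.01). Those scalings placed 1.86% and 1.8% of all genes over 2-fold and higher.

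Below the size of 0.5 on the log2 scale, 2 more increases stood out from the rest, and these were picked after their values were seen. *Slc25a22* was at 78.8, 83.3 and 73.8 TPM in the K382Q libraries and at 53.0, 62.8 and 51.2 TPM in the K382R libraries. It encodes a glutamate carrier, and the groups did not overlap (log2 fold change 0.498, SE 0.0803, adjusted p = 1.48e-03 by limma). *Slc25a33* was at 45.1, 50.5 and 47.1 TPM in the K382Q libraries and at 35.8, 34.0 and 35.7 TPM in the K382R libraries. It encodes a carrier of pyrimidine nucleotides (log2 fold change 0.43, SE 0.0511, adjusted p = 3.15e-04 by limma), and its groups did not overlap either.

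The decreases of this size were those of both well expressed carriers of ATP-Mg and phosphate, which set the adenine nucleotide content of mitochondria and are regulated by calcium. *Slc25a25* (ENSMUSG00000026819.16, chr2:32304499-32341457, minus strand) was at 20.8, 19.1 and 21.7 TPM in PPARγ2 K382Q-overexpressing cells and at 37.2, 34.6 and 37.3 TPM in PPARγ2 K382R-overexpressing cells. Every K382Q library was below every K382R library (log2 fold change −0.81, SE 0.0590, adjusted p = 2.72e-05 by limma). *Slc25a24* (ENSMUSG00000040322.11, chr3:109030465-109075773, plus strand) was at 44.2, 39.2 and 43.3 TPM against 67.9, 67.6 and 66.6 TPM. Its groups were apart as well (log2 fold change −0.67, SE 0.05, adjusted p = 3.09e-05 by limma). Both kept the call under all 16 alternatives.

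The related *Slc25a23* was low, at 4.21 to 5.63 TPM against 4.14 to 6.26 TPM, and its groups overlapped (log2 fold change −0.10, 95% interval −0.47 to 0.28). *Slc25a41* was listed at 0 in all libraries. The summed level of the group was mostly that of *Slc25a24* and *Slc25a25*, with 62.7 to 70.6 TPM in the K382Q and 107 to 111 TPM in the K382R libraries.

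*Slc25a43*, a carrier of unknown substrate on the X chromosome, was the remaining member of this size (ENSMUSG00000037636.7, chrX:36007312-36040855). It was at 0.381, 0.317 and 0.374 TPM in the K382Q libraries and at 1.06, 1.33 and 1.04 TPM in the K382R libraries. It reached 0.5 TPM in the K382R libraries alone, so among genes that passed the filter it had to be lower in the other group. The fitted log2 fold change was −0.94 (SE 0.172, adjusted p = 2.87e-03 by limma), which the pseudocount of 0.5 draws toward 0 at this level. With a pseudocount of 0.1 it passed 2-fold. Coverage was only 0.570 to 2.76 reads per base. Genes called with an absolute log2 fold change of at least 0.5 made up 15.4% of all tested genes, and the family had these 5.

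**Figure D3:**
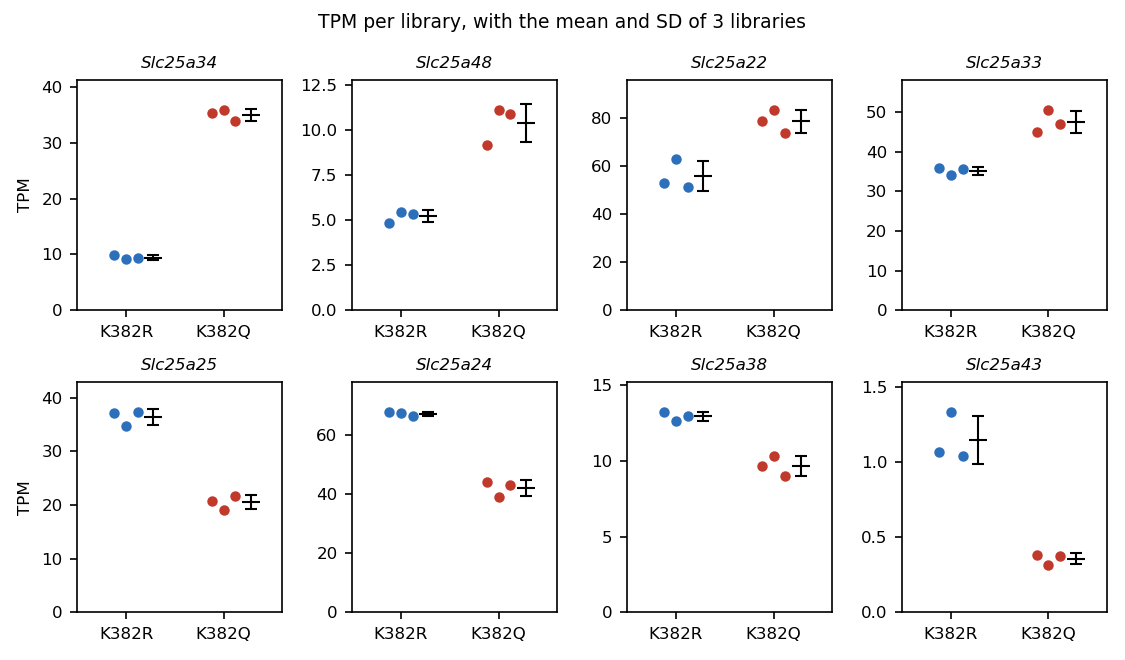
TPM per library (linear axes from 0, 3 libraries per group; the cross and bar give the mean and SD) for the 5 members with the largest called differences and for *Slc25a22*, *Slc25a33* and *Slc25a38*. The upper row holds members higher with K382Q and the lower row members lower with K382Q. The groups do not overlap in these panels, whose members were picked for their differences (57% of all tested genes do not overlap).

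The carriers of ADP, ATP and phosphate, which feed and empty the ATP synthase, were the most abundant group, with small differences between the mutants (of 3 tested, 1 lower and 2 not called, beside 36.9% of all genes called lower). With median-ratio scaling 1 was higher and 0 lower, beside 19.8% and 20.4% of all genes. *Slc25a5* was at 1062, 1021 and 1020.2 TPM in the K382Q libraries and at 1221, 1169 and 1189 TPM in the K382R libraries. This ADP/ATP carrier gene was lower with TPM (log2 fold change −0.21, SE 0.0306, adjusted p = 9.90e-04 by limma) and did not pass with median-ratio scaling (−0.05, adjusted p = 0.205). *Slc25a3* was at 808, 788 and 789 TPM in the K382Q libraries and at 781, 785 and 788 TPM in the K382R libraries. It encodes the phosphate carrier, and its values differed by 0.02 on the log2 scale (95% interval −0.04 to 0.08). Calls of this gene appeared in both directions with the scaling, higher with median-ratio scaling (0.17, adjusted p = 1.34e-03 by limma) and with FPKM (0.10, adjusted p = 0.0165), and lower with quantile normalization (−0.10, adjusted p = 0.0425). *Slc25a4* was at 355, 373 and 367 TPM in the K382Q libraries and at 387, 378 and 371 TPM in the K382R libraries. This ADP/ATP carrier gene of heart and muscle was not called (−0.05, 95% interval −0.12 to 0.02). *Slc25a31*, the ADP/ATP carrier gene of germ cells, was listed at 0 in all libraries.

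Of 3 tested carriers of di- and tricarboxylates, 1 was higher and 2 lower, beside 11.1% and 36.9% of all genes, and with median-ratio scaling 1 was higher and 0 lower, beside 19.8% and 20.4%. *Slc25a10* encodes the dicarboxylate carrier, which exchanges malate or succinate for phosphate. It was at 389, 382 and 369.7 TPM against 403, 412 and 407 TPM in the K382R libraries. The difference was small (log2 fold change −0.10, adjusted p = 0.0232 by limma) and turned to 0.05 with median-ratio scaling. The call was lost without K382Q replicate 3 (adjusted p = 0.0720) and without K382R replicate 1 (0.0508), 2 (0.0836) or 3 (0.0671). *Slc25a1* encodes the citrate carrier, which exports citrate for lipid synthesis. *Slc25a1* was at 194, 215 and 201 TPM in the K382Q libraries and at 228, 229.8 and 216 TPM in the K382R libraries. It was called lower with TPM (−0.14, adjusted p = 0.0317 by limma) and stood at 0.01 with median-ratio scaling (adjusted p = 0.919). The call was lost without K382Q replicate 1 (adjusted p = 0.0795) or 3 (0.0816) and without K382R replicate 1 (0.0963) or 2 (0.0995). *Slc25a11* encodes the oxoglutarate carrier of the malate-aspartate shuttle. *Slc25a11* was at 158, 161 and 157 TPM in the K382Q libraries and at 133, 136 and 137 TPM in the K382R libraries. Its groups did not overlap, and it was higher under all scalings (0.23, SE 0.0280, adjusted p = 3.58e-04 by limma). The summed level of the group, with the barely detected *Slc25a21*, was 728 to 758 TPM against 760.3 to 778 TPM.

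The carnitine/acylcarnitine carrier *Slc25a20*, which brings fatty acyl groups in for oxidation, was modestly higher. It was at 235, 226 and 238 TPM in the K382Q libraries and at 212, 206 and 209 TPM in the K382R libraries. The groups did not overlap (log2 fold change 0.16, SE 0.0301, adjusted p = 3.61e-03 by limma), and with median-ratio scaling the value was 0.31.

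Among the 11 tested carriers of amino acids, glutathione and choline, 3 were higher, 3 lower and 5 not called, beside 11.1% and 36.9% of all genes. With median-ratio scaling 5 were higher and 1 lower, beside 19.8% and 20.4%. *Slc25a39* was at 577, 605 and 559.7 TPM in the K382Q libraries and at 508, 517 and 504 TPM in the K382R libraries. It encodes the main glutathione carrier, and the groups did not overlap (0.19, SE 0.0343, adjusted p = 2.87e-03 by limma). The summed level of this group, in which *Slc25a39* is the largest term, was 791 to 846 TPM against 726 to 748 TPM. The other increases were those of *Slc25a22* and *Slc25a48*, given above.

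*Slc25a38* was at 9.64, 10.3 and 9.01 TPM in the K382Q libraries and at 13.2, 12.6 and 13.0 TPM in the K382R libraries. It encodes the glycine carrier used for heme synthesis, and was lower under all scalings (−0.40, SE 0.0689, adjusted p = 1.95e-03 by limma). *Slc25a44* was at 76.5, 75.8 and 75.9 TPM in the K382Q libraries and at 88.0, 87.3 and 91.2 TPM in the K382R libraries. This carrier of branched-chain amino acids was called lower with TPM (−0.22, adjusted p = 7.96e-04 by limma) and not with median-ratio scaling (−0.07, adjusted p = 0.104). The aspartate/glutamate carrier *Slc25a13* behaved alike, with −0.31 (adjusted p = 0.0363 by limma) and −0.17 (adjusted p = 0.239). It lost the call without K382Q replicate 1 (adjusted p = 0.0958) or 3 (0.110) and without K382R replicate 1 (0.113) or 2 (0.0825). Its relative *Slc25a12*, the ornithine carrier *Slc25a15*, *Slc25a29*, *Slc25a40* and *Slc25a45* were not called, with log2 fold changes between −0.03 and 0.26. With median-ratio scaling *Slc25a12* (0.23, adjusted p = 0.0206 by limma) and *Slc25a40* (0.17, adjusted p = 0.0215) were called higher, and so they were with quantile normalization.

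Among the 9 carriers of nucleotides and cofactors, 2 were higher, 2 lower and 5 not called, beside 11.1% and 36.9% of all genes, and with median-ratio scaling 4 were higher and 1 lower, beside 19.8% and 20.4%. The most abundant, the NAD carrier *Slc25a51*, was at 156, 146 and 145 TPM in the K382Q and 141, 156 and 153 TPM in the K382R libraries, with overlapping groups (−0.01, 95% interval −0.12 to 0.10). It was called higher with median-ratio scaling (0.14, adjusted p = 0.0337 by limma). *Slc25a32* was at 15.2, 13.8 and 14.2 TPM in the K382Q libraries and at 18.9, 17.7 and 19.0 TPM in the K382R libraries. It is known for the import of folate or FAD, and was lower under all scalings (−0.35, SE 0.0600, adjusted p = 1.92e-03 by limma). The peroxisomal carrier *Slc25a17* was lower with TPM (95.2 ± 4.64 against 114 ± 2.48 TPM, SD, n = 3; −0.26, adjusted p = 1.57e-03 by limma) and not with median-ratio scaling (−0.11, adjusted p = 0.0639). The coenzyme A carrier *Slc25a42* was higher with TPM by 0.15 (adjusted p = 0.0356 by limma), at 32.8 to 36.1 against 31.0 to 31.5 TPM, but kept the call under only 8 of the 16 alternatives. Without any one library other than K382Q replicate 3 it was not called (adjusted p = 0.0744 to 0.0952). *Slc25a16*, *Slc25a26* and *Slc25a36* were not called, although without K382Q replicate 2 the S-adenosylmethionine carrier *Slc25a26* was (−0.29, adjusted p = 0.0158 by limma).

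The 2 iron carriers and the 3 carriers most like the uncoupling proteins had no called member, beside 48.1% of all genes called. The mitoferrin gene *Slc25a28* was at 59.1, 50.7 and 49.9 TPM in the K382Q and 55.8, 56.2 and 50.1 TPM in the K382R libraries (−0.02, 95% interval −0.20 to 0.15). Its relative *Slc25a37* was at 11.3 to 13.2 TPM against 11.5 to 13.1 TPM. *Slc25a30* was at 17.0, 16.7 and 17.1 TPM in the K382Q libraries and at 16.9, 16.3 and 18.9 TPM in the K382R libraries. It is the most abundant of the 3 UCP-like carriers, and its groups overlapped (−0.03, 95% interval −0.18 to 0.12). *Slc25a14* and *Slc25a27* were lower in level, at 4.20 to 6.59 TPM and 1.22 to 2.14 TPM. Among the carriers of little known substrate, *Slc25a46*, which acts in the outer membrane on mitochondrial shape, was at 34.8, 33.1 and 34.1 TPM against 36.5, 36.1 and 36.9 TPM and did not pass (−0.10, adjusted p = 0.0651 by limma). With no filter on low values, *Slc25a46* was called lower (adjusted p = 0.0492 by limma). *Slc25a35*, *Slc25a47* and *Slc25a53* were under 5 TPM and not called.

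The 6 members under the filter reached at most 0.506 TPM. *Slc25a2* peaked at 0.394 TPM, *Slc25a18* at 0.178 TPM and *Slc25a54* at 0.115 TPM, and *Slc25a31* and *Slc25a41* were listed at 0. *Slc25a21*, an oxodicarboxylate carrier, was listed at 0, 0.0956 and 0.0471 TPM in the K382Q libraries and at 0.371, 0.292 and 0.506 TPM in the K382R libraries. Its groups were apart, but it was too low for the main test. With no filter on low values, 45 members were tested, and 7 were higher and 12 lower. Over all 29522 genes tested in that way, 1435 were higher and 5105 lower.

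Over the 41 tested members, the 3 libraries of one group lay wholly above those of the other for 11 genes with K382Q higher and for 12 with K382Q lower, and overlapped for 18. Among all tested genes, 57% did not overlap (14.1% with K382Q higher and 42.8% with K382Q lower).

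Several substrates have more than one carrier. For this reason the share of each gene in 7 pairs of related carriers was compared, a value that a common factor on all genes of a library does not change, although quantile normalization can. *Slc25a4* made up 26.1 ± 0.911% of the ADP/ATP carrier pair with *Slc25a5* in PPARγ2 K382Q-overexpressing cells and 24.1 ± 0.329% in PPARγ2 K382R-overexpressing cells (SD, n = 3 here and below). *Slc25a12* made up 63.1 ± 2.59% against 56.0 ± 0.909% of the aspartate/glutamate pair with *Slc25a13*. *Slc25a33* made up 62.9 ± 2.94% against 55.4 ± 1.34% of the pyrimidine nucleotide pair with *Slc25a36*. In each of these pairs every K382Q library was above every K382R library.

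The same held for *Slc25a23* with *Slc25a24* (10.1 ± 1.41% against 7.05 ± 1.30%) and for the glutathione carriers *Slc25a39* with *Slc25a40* (95.8 ± 0.281% against 95.3 ± 0.206%). The mitoferrin pair overlapped, with 18.8 ± 0.720% against 18.7 ± 0.309% for *Slc25a37*, and *Slc25a42* with *Slc25a16* overlapped as well (52.7 ± 2.91% against 49.3 ± 0.739%). The differences of the log2 ratio were 0.15, 0.42, 0.45, 0.57 and 0.16 in the 5 pairs that did not overlap, in the order given. For the glutathione carriers it was 0.11 without K382Q replicate 2. The exact permutation test, two-sided, gave p = 0.1 for each of these, its smallest possible value (0.14 after Benjamini-Hochberg adjustment over the 7 pairs), p = 0.9 for the mitoferrins and p = 0.3 for the last pair. This test cannot go below that value with 3 against 3 libraries. The coding sequences of the pairs were 56.9% to 77.4% identical, highest for *Slc25a4* and *Slc25a5*.

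**Figure D4:**
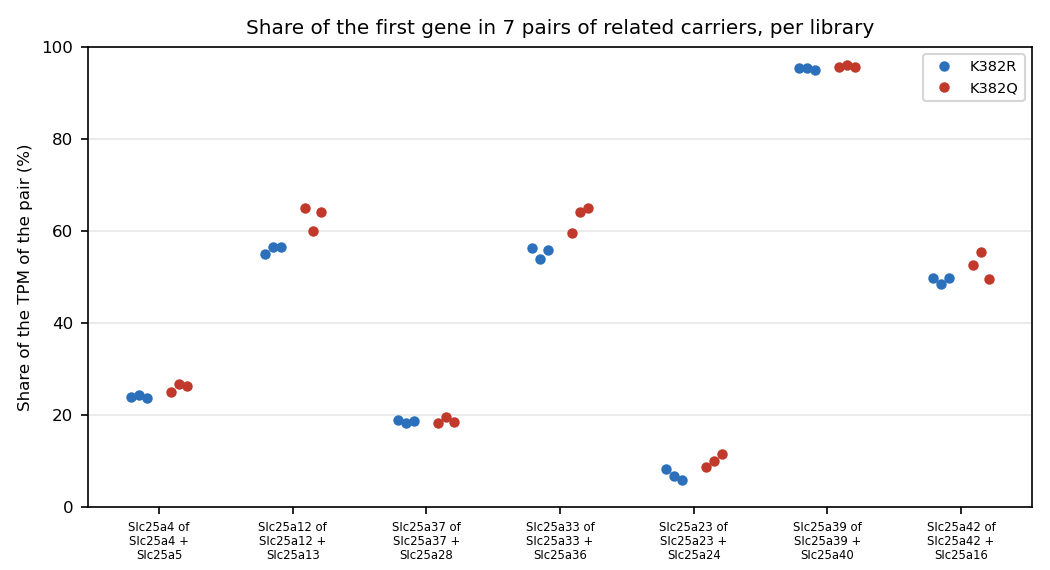
Share of the first-named gene in the summed TPM of 7 pairs of related carriers, in percent, 1 point per library (blue, K382R; red, K382Q). The points of the groups are apart for *Slc25a4*, *Slc25a12*, *Slc25a33*, *Slc25a23* and, by less than 1 percentage point, *Slc25a39*, and they overlap for *Slc25a37* and *Slc25a42*.

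Proteins of the same family under other symbols were looked at beside the members. The 3 uncoupling protein genes were called higher in PPARγ2 K382Q-overexpressing cells, beside 11.1% of all genes. *Ucp2* was at 155, 159 and 163 TPM against 101, 100.2 and 110.0 TPM (log2 fold change 0.61, SE 0.0434, adjusted p = 2.35e-05 by limma). *Ucp1*, the uncoupling protein of brown and beige fat, was low on this day, at 0.980, 0.954 and 0.816 TPM against 0.162, 0.0439 and 0.0532 TPM (1.28, adjusted p = 1.17e-03 by limma). *Ucp3* was at 1.32 to 1.59 against 0.209 to 0.437 TPM (1.18, adjusted p = 1.31e-03 by limma). *Ucp1* and *Ucp3* passed the filter only through the K382Q libraries, so among tested genes they had to be higher. The value of *Ucp1* was 2.50 with a pseudocount of 0.1 and 0.72 with FPKM, and that of *Ucp3* was 1.79 and 0.77. The outer-membrane relatives *Mtch1* (0.14, adjusted p = 0.142) and *Mtch2* (0.09, adjusted p = 0.368) did not pass in limma, and did with median-ratio scaling. *Mtch1* also passed with FPKM (adjusted p = 0.0398), with quantile normalization (0.0413) and without K382Q replicate 3 (0.0481). With 1 library left out, the log2 fold change ran from 0.073 to 0.20 for *Mtch1* and from 0.029 to 0.17 for *Mtch2*.

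Other transporters of the inner membrane were more often lower than higher, with 2 of 15 higher and 9 lower, beside 11.1% and 36.9% of all genes. With median-ratio scaling these were 4 and 5, beside 19.8% and 20.4%. The lower call of *Sfxn3* was lost without any one library (adjusted p = 0.0505 to 0.119), that of *Micu2* without K382Q replicate 2 or 3 or K382R replicate 1 or 3 (0.0510 to 0.0859), and that of *Mcub* without replicate 3 of either group (0.0529 and 0.0515). The subunits of the mitochondrial pyruvate carrier went in opposite directions. *Mpc1* was at 204, 251 and 208 TPM against 147, 171 and 185 TPM (0.40, adjusted p = 0.0132 by limma). With no filter on low values it was not called (adjusted p = 0.0614). *Mpc2* was at 319, 335 and 334 TPM against 426, 408 and 408 TPM (−0.33, adjusted p = 1.19e-04 by limma). The calcium uniporter pore *Mcu* was lower by TPM, at 30.4 to 31.0 against 36.2 to 39.9 TPM (−0.32, adjusted p = 9.15e-04 by limma).

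Of the outer-membrane pores, *Vdac1* was higher, at 415 to 432 TPM against 331 to 337 TPM (0.33, adjusted p = 4.84e-05 by limma), and *Vdac2* and *Vdac3* were not called. *Vdac3* was called higher with median-ratio scaling (0.18, adjusted p = 2.09e-03 by limma) and with quantile normalization. Of 13 genes that import carrier proteins (receptors and pore of the outer membrane, small chaperones and the TIM22 insertase), 1 was higher and 8 lower with TPM, beside 11.1% and 36.9% of all genes. With median-ratio scaling 2 were higher and 3 lower, beside 19.8% and 20.4%. The call of *Timm8b* was lost without K382Q replicate 3 (adjusted p = 0.0562), and that of *Timm10b* without K382Q replicate 2 or 3 or K382R replicate 1 or 2 (0.0891 to 0.117). No gene of the last 3 lists passed 2-fold.

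In GENCODE release M39, which is not the release of the deposited tables (the gene coordinates are equal for 2 of the 41 tested members), all tested members are protein coding. Their coding sequences run from 822 to 2031 bases with a median of 954. Exon bases are shared with a gene on the opposite strand by 22 of them, and the library kit does not mark strand, so reads there cannot be told apart. Among the members described, *Slc25a25* shares bases with *Naif1* (4.18 to 4.90 TPM), *Slc25a11* with *Rnf167* (at most 29.2 TPM) and *Slc25a42* with *Tmem161a* (45.0 to 54.9 TPM). *Slc25a26* (11.3 to 14.7 TPM) shares them with *Lrig1* (26.3 to 44.0 TPM) and *Slc25a35* (1.98 to 2.98 TPM) with *Rangrf* (at least 7.65 TPM). *Tmem161a*, *Lrig1* and *Rangrf* lay above their member in every library. *Slc25a24* shares them with a predicted gene under 2 TPM, and *Slc25a34* and *Slc25a48* with predicted genes that were not analysed here. *Slc25a5-ps*, a pseudogene of *Slc25a5* that the symbol rule leaves out, was at 0.251 to 0.680 TPM. How reads shared by near-identical copies were split is not given in the sources used here, so the level of *Slc25a5* carries that uncertainty.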

How the data were processed

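RNA from 3 K382Q and 3 K382R libraries was sequenced as paired reads. Per the labels and the study's methods, the authors aligned reads to GRCm39 with HISAT2 and quantified genes with StringTie. The annotation release is not given in the sources used here. Each deposited table held the coverage (mean read depth per base, not normalized), FPKM (scaled to the aligned bases) and TPM, which the authors deposited per library. TPM is scaled to a fixed total, so it gives shares. The authors' counts were not analysed here, so intervals from counts could not be given and precision rests on the 3 replicates.

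Values of repeated gene IDs were summed. Genes that reached 0.5 TPM in 3 or more libraries were compared by limma (3.58.1, in R 4.3.3). It was run on log2(TPM + 0.5), let the variance follow the intensity, and adjusted p by Benjamini-Hochberg. Fold changes on this scale understate those of low genes. Genes were called at adjusted p under 0.05, and also over 2-fold. Pair ratios used an exact permutation test (scipy 1.17.1). No pair of libraries shared more than 0.0102% of identical values above 0.

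Named were called members with an absolute log2 fold change of at least 0.5, the most abundant member of each role and the 6 most abundant overall. Others are named with their values in their groups, and the values of 1 tested member are not reported here. The members, lists and tests were chosen with earlier results of these data known. Alternatives were pseudocounts of 1 and 0.1, no filter, a TPM of at least 1, FPKM, median-ratio scaling, quantile normalization, TPM without mitochondrially encoded genes, no intensity trend, the replicate number as a block and each library left out. Python 3.11.15, pandas 2.3.3, numpy 2.4.6, Biopython 1.88 and matplotlib 3.10.9 were used.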

Additional observations from a re-analysis of the deposited data

How the results depend on the processing

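Of the 16 alternatives, scaling changed most. With median-ratio scaling, 13 members were higher, 5 lower and 2 higher by over 2-fold, and the median of the tested members was 0.12. With quantile normalization the median was 0.11 and 2 were higher by over 2-fold, which without K382Q replicate 1 was also 2. With a pseudocount of 0.1, 1 member was lower by over 2-fold. The share of higher members among those called was 42.1% with TPM, 72.2% with median-ratio scaling, 57.9% with quantile normalization and 55.6% with FPKM. Over all genes, these shares were 23.2%, 49.2%, 47.7% and 36.4% in the same order. Leaving out 1 library gave 7 to 8 higher and 8 to 12 lower members, beside 1443 to 1546 higher and 4939 to 5511 lower of 15426 genes. Under every alternative, 7 members were higher and 5 lower, a count that is not given here for all genes. The 5 lower members include *Slc25a43*, which passed the filter through the K382R libraries alone. The cause was not tested.

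The sign turned for the following members. *Slc25a1* was 0.0080 with median-ratio scaling. *Slc25a23* was 0.042 by median-ratio and 0.033 by quantile scaling. *Slc25a3* was −0.10 with quantile normalization. *Slc25a4* was 0.031 with FPKM and 0.10 with median-ratio scaling, and *Slc25a10* was 0.052 with the latter. *Slc25a28* was 0.059 with FPKM, 0.13 by median-ratio and 0.15 by quantile scaling. In that order, *Slc25a30* was 0.047, 0.11 and 0.13, and *Slc25a51* 0.074, 0.14 and 0.10. By the same scalings, *Slc25a15* was 0.047, 0.12 and 0.12, and *Slc25a16* 0.038, 0.11 and 0.11. *Slc25a36* was 0.070, 0.14 and 0.15, *Slc25a37* 0.060, 0.13 and 0.13, and *Slc25a45* 0.039, 0.10 and 0.10. Without mitochondrially encoded genes, *Slc25a28* was 0.0019, *Slc25a36* 0.014, *Slc25a37* 0.0070 and *Slc25a51* 0.015. *Slc25a46* was 0.050 by median-ratio and 0.059 by quantile scaling. Leaving out 1 library gave −0.23 to 0.044 for *Slc25a23*, −0.10 to 0.021 for *Slc25a28*, −0.076 to 0.026 for *Slc25a30*, −0.054 to 0.018 for *Slc25a51*, −0.011 to 0.054 for *Slc25a40* and −0.033 to 0.031 for the log2 ratio of *Slc25a37* to *Slc25a28*. It also gave −0.13 to 0.037 for *Slc25a15*, −0.087 to 0.025 for *Slc25a16*, −0.075 to 0.060 for *Slc25a36* and −0.070 to 0.038 for *Slc25a37*. For *Slc25a45* the range was −0.086 to 0.074, for *Slc25a47* −0.33 to 0.046 and for *Slc25a53* −0.012 to 0.21.

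The replicate numbers did not pair the libraries (correlations of deviations −0.02, 0.05 and 0.02). With the replicate number as a block, 7 members were higher and 11 lower, and *Mtch1* was called higher (adjusted p = 0.0132 by limma). Over all genes the block gave 1600 higher and 5387 lower calls, against 1717 and 5698. Low levels limit the 11 tested members under 10 TPM.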
